A study of Drosophila melanogaster with 2 samples.

Results

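The TCA cycle enzyme genes are 10 genes that encode enzymes of the tricarboxylic acid cycle in Drosophila melanogaster, or, for Mdh1, the cytosolic partner of its last enzyme. They were fixed by name, all 10 matched a single gene model, and they stand among 13945 protein-coding genes on the chromosome arms that carry regions. Every region with a summit inside the gene, or within 2000 bp of any of its transcript starts, was assigned to it. By that rule the genes held 6 of the 2892 regions of the optimal set, the list the authors selected by the irreproducible discovery rate, which asks whether region ranks hold between replicates. The regions come from chromatin immunoprecipitation with sequencing (ChIP-seq) on whole embryos aged 0 to 24 h, male and female together, of a transgenic fly line. The line carries ERR, an oestrogen-related nuclear receptor, with GFP at its C-terminus, and the precipitation was aimed at GFP. There is 1 group, made up of biological replicates 2 and 3 from the same line, so the design holds no contrast between conditions and no p-value is given. A transcription factor bound in few cells and one bound weakly in many cannot be told apart in whole embryos, and the region lists hold no expression values by which the tissue could be checked.

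The cycle oxidises the acetyl group of acetyl-CoA in mitochondria. Citrate synthase joins it to oxaloacetate, aconitase and isocitrate dehydrogenase carry the citrate towards succinyl-CoA, and succinyl-CoA synthetase, succinate dehydrogenase, fumarase and malate dehydrogenase return the carbon to oxaloacetate. ERR is best known in the fly embryo for switching on glycolysis and the pentose phosphate pathway. In mouse and human, its relatives are known as regulators of TCA cycle and respiratory chain genes.

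Among the 10 genes the highest signals were at fumarase and both malate dehydrogenase genes, with summits inside the annotated extent of each gene and 242 to 542 bp from its nearest start. The sequences around the highest pooled summit are shown for 7 genes, in order of signal, so that the strongest regions can be read beside those below the optimal set. The windows of mAcon1 and Idh3b lie wholly in annotated untranslated sequence and are not shown, nor is that of SdhA. The sequences are from the release 6 genome (dm6), 100 bp on either side of the summit, cut to the longest stretch without bases annotated as untranslated, 5' to 3' in the direction of each gene. Capitals mark GGTCA or its reverse complement, the end of the sequence that oestrogen-related receptors bind. This pentamer was picked for marking after the sequences had been seen, and its share over all optimal windows is given below. The coordinates are chrX:6679271-6679471 on the plus strand for Fum1, chr3R:18226838-18227038 on the plus strand for Mdh2 and chr2L:10395933-10396133 on the minus strand for Mdh1. They are chr3R:25680692-25680844 on the plus strand for Idh3g, chrX:6352221-6352281 on the plus strand for kdn, chr3L:3814573-3814773 on the plus strand for Scsalpha1 and chrX:19521811-19521928 on the minus strand for Idh3a.
Fum1: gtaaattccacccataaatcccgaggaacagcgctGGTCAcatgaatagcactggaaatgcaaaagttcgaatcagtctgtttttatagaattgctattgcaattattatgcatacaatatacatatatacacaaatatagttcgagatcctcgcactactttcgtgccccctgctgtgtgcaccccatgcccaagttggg
Mdh2: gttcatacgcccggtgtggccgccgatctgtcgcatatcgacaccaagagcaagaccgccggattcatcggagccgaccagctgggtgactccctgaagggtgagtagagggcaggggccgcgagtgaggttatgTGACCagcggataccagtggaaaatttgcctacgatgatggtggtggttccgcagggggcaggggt
Mdh1: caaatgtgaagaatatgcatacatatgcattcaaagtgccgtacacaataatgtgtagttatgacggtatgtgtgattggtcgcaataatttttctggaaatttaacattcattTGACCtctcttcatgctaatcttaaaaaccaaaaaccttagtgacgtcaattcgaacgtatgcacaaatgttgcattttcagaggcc
Idh3g: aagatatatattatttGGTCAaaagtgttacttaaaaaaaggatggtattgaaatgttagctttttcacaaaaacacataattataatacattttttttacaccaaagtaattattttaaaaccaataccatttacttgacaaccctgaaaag
kdn: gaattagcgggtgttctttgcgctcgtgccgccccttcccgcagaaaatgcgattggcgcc
Scsalpha1: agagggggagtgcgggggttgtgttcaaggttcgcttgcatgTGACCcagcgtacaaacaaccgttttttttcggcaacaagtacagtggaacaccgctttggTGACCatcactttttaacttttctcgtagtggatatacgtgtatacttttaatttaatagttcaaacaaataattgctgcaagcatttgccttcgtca
Idh3a: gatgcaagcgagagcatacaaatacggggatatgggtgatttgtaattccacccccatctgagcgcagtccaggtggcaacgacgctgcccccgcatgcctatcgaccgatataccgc
The stretches of Fum1, Mdh2, Mdh1 and Idh3g hold 1 marked pentamer each and that of Scsalpha1 holds 2. Those of kdn and Idh3a, which are shorter than most, hold none. The windows that are not shown, of mAcon1, Idh3b and SdhA, had no match to the pentamer either.

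Of the 10 genes, 6 held an optimal region, namely mAcon1, Idh3b, Idh3g, Fum1, Mdh1 and Mdh2, and each held exactly 1. Over all protein-coding genes 22.5% had an optimal region by the same rule. The other 4, kdn, Idh3a, Scsalpha1 and SdhA, had regions only in the relaxed lists, which hold 30000 regions each and reach far into the background. In the pooled relaxed list all 10 genes had a region, as did 72.5% of protein-coding genes. The span searched had a median of 5402.5 bp for the 10 genes and 4275 bp for all genes, so the members offered more sequence in which a summit could lie. The median of the highest pooled signal was 91.9 for the 10 genes and 33.9 over all protein-coding genes. In the latter, the 3831 genes without a pooled region were counted with a signal of 0, which lowers that median. Signals are the caller's own units and are not scaled between lists, so ranks within a list are given beside them.

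**Figure D1:**
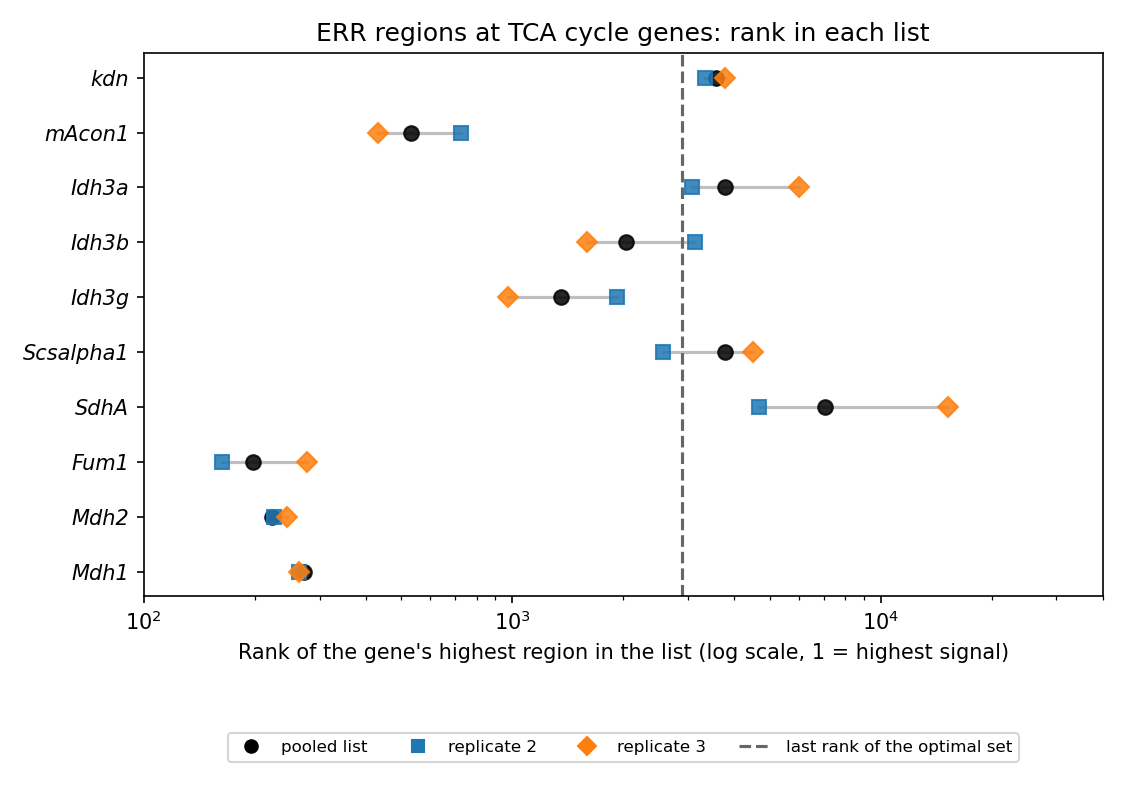
Rank of the highest region at each gene (horizontal axis, log scale, 1 is the highest signal) in the pooled list and in replicates 2 and 3, with genes in pathway order from top to bottom. Fum1, Mdh2 and Mdh1 lie between ranks 163 and 277 in every list, mAcon1 between 431 and 726, and kdn, Idh3a and SdhA lie beyond the dashed line at rank 2892 in all 3 lists.

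The first enzymes of the cycle differed, with a region in the optimal set at aconitase and none at citrate synthase. kdn (FBgn0261955; X, 6350629 to 6361323), the citrate synthase gene, had its highest region at X, 6352119 to 6352522. Its summit lay in the 5' UTR of the shorter transcript, 39 bp from that start and within intron 1 of the longer one. The region had a signal of 61.5 and rank 3583 in the pooled list, and 38.1 and rank 3333 in replicate 2. Replicate 3 had no summit within 100 bp of it. The highest kdn region of replicate 3, with a signal of 28.6 and rank 3779, had its summit 128 bp away and nearer to another pooled region, of signal 34.3. The lowest signal of the optimal set was 69.2, so kdn fell short of it in the pooled list, and no kdn region ranked within 2892 in either replicate. The gene is long, 10695 bp, and held 8 pooled regions. The other 7 of these had signals from 18.8 to 36.1.

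mAcon1 (FBgn0010100; 2L, 21168570 to 21173185), encoding mitochondrial aconitase, had an optimal region at 2L, 21168236 to 21168639. Its signal was 158 and its rank 530 in the pooled list, against 80.1 and rank 726 in replicate 2 and 77.2 and rank 431 in replicate 3. Both replicates placed it high, with summits 11 and 30 bp from the pooled one. The summit lay 132 bp upstream of the mAcon1 start and 89 bp from a start of CG43345 and CG43346, which are read the other way, and inside their annotated 5' UTR. The region is therefore nearer to those genes than to mAcon1.

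Of the 3 subunit genes of the NAD-dependent isocitrate dehydrogenase, Idh3b and Idh3g held an optimal region and Idh3a did not. Idh3a encodes the subunit that is catalytic in mammals, and Idh3b and Idh3g those that are its partners there. Idh3g (FBgn0039358; 3R, 25680845 to 25683780) had the highest signal of the 3, at 3R, 25680590 to 25680993, with 101.1 and rank 1355 in the pooled list, 50.6 and rank 1921 in replicate 2 and 53.6 and rank 971 in replicate 3. Its summit lay 53 bp upstream of the start, and 242 bp from the start of CG4743, transcribed the other way. Idh3b (FBgn0038922; 3R, 22016391 to 22019382) had 82.7 and rank 2042 in the pooled list at 3R, 22019035 to 22019438. It had 39.3 and rank 3141 in replicate 2, and 42.5 and rank 1592 in replicate 3. The replicate summits lay within 4 bp of the pooled one, in the 5' UTR of the longer transcript and 53 bp upstream of the inner start. Idh3b was the only optimal member whose region ranked beyond 2892 in a replicate, here replicate 2.

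Idh3a (FBgn0027291; X, 19518428 to 19521810) remained below the optimal set. Its highest pooled region, at X, 19521688 to 19522091, had a signal of 59.7 and rank 3789. In replicate 2 the signal was 39.7 and the rank 3083, and in replicate 3 they were 22.7 and 6015. The summit lay 80 bp upstream of Idh3a and 39 bp from a start of CoRest, which encodes a transcriptional corepressor and is transcribed the other way. In replicate 2 Idh3a and Idh3b were thus nearly level, at ranks 3083 and 3141, and they were apart in replicate 3 only. A further pooled region, 1065 bp into Idh3a in coding sequence, had a signal of 48.5, rank 5485 in the pooled list and rank 4706 in replicate 2. Replicate 3 had no summit within 100 bp of it.

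The middle steps, from succinyl-CoA to fumarate, held no optimal region at either gene. Scsalpha1 (FBgn0004888; 3L, 3814211 to 3818383), encoding the alpha subunit of succinyl-CoA synthetase, had its highest pooled region at 3L, 3814471 to 3814874. The summit lay in intron 1, 462 bp from the start. The region had a pooled signal of 59.9 and rank 3770, 43.7 and rank 2568 in replicate 2, and 18.6 and rank 8964 in replicate 3. It would thus fall among the 2892 highest regions of replicate 2 and far outside them in replicate 3. The highest Scsalpha1 region of replicate 3 was another, 2965 bp into the gene, with a signal of 26.2 and rank 4498.

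SdhA (FBgn0261439; 2R, 19391863 to 19395971), encoding the flavoprotein subunit of succinate dehydrogenase, the enzyme that is also complex II of the respiratory chain, had the lowest values of the 10. Its highest pooled region had a signal of 41.9 and rank 7051. That summit lay 879 bp upstream of SdhA and 78 bp from the start of cer, which encodes a cysteine protease inhibitor, so it is nearer to cer. The region ranked 4672 in replicate 2, with a signal of 31.7, and 21162 in replicate 3, with 11.7. Beside the SdhA start itself, 53 bp upstream, the pooled signal was 32.0 and the rank 11056. No region of SdhA ranked above 15194 in replicate 3, where the highest signal was 14.1.

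Fumarase and the malate dehydrogenases had the 3 highest pooled ranks of the members, followed by mAcon1 at rank 530. All 3 summits lay in introns or at an intron's edge, as did the highest summit of Scsalpha1. Fum1 (FBgn0286222; X, 6678424 to 6681845), encoding fumarase, had its optimal region at X, 6679257 to 6679499. The signal was 242 and the rank 198 in the pooled list, 152 and rank 163 in replicate 2, and 93.2 and rank 277 in replicate 3. The summit lay in intron 1 of the longer transcript, an intron of 1209 bp, and 269 bp upstream of the start of the shorter one. A start of ND-ASHI, which encodes a subunit of respiratory complex I, lay 253 bp from the summit on the other strand. That start is thus slightly nearer to the summit than any Fum1 start. A second pooled region sat at the outer Fum1 start, at X, 6678074 to 6678477, between Fum1 and further starts of ND-ASHI. Its signal was 44.9 and its rank 6254, so the region inside the gene was 5.38 times as high.

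Mdh2 (FBgn0262559; 3R, 18226396 to 18228718), encoding the mitochondrial malate dehydrogenase that closes the cycle, had its optimal region at 3R, 18226833 to 18227076. It had a signal of 232 and rank 223 in the pooled list, 132 and rank 225 in replicate 2, and 99.0 and rank 245 in replicate 3. The ranks in the 3 lists differed by at most 22 places. The summit lay 542 bp downstream of the only start, on the first base of intron 2, so the region spans the end of a coding exon and the intron behind it. With a promoter drawn 500 bp on either side of a start, this region does not count, although its signal is the next highest after that of Fum1 among the members. A region 214 bp upstream of the Mdh2 start, 100 bp from the start of CG7168, had a pooled signal of 32.1 and rank 10973. The intronic region had 6.07 times the signal of the next highest Mdh2 region, which lay 1692 bp into the gene with a signal of 38.2.

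Mdh1 (FBgn0262782; 2L, 10393774 to 10396332), encoding the cytosolic malate dehydrogenase of the malate-aspartate shuttle, had its optimal region at 2L, 10395940 to 10396052. Its signal was 214.5 and its rank 272 in the pooled list, 123 and rank 263 in replicate 2, and 95.8 and rank 263 in replicate 3. Both replicates gave it the same rank. The summit lay in the gene's only intron, of 1270 bp, 242 bp downstream of a start, and no start of another protein-coding gene lay within 500 bp. Next to it, 40 bp from a start, a region at 2L, 10396134 to 10396261 had a pooled signal of 31.4 and rank 11420. In replicate 3 the neighbouring region had a signal of 41.2 and rank 1703, and its summit lay 96 bp from a start.

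**Figure D2:**
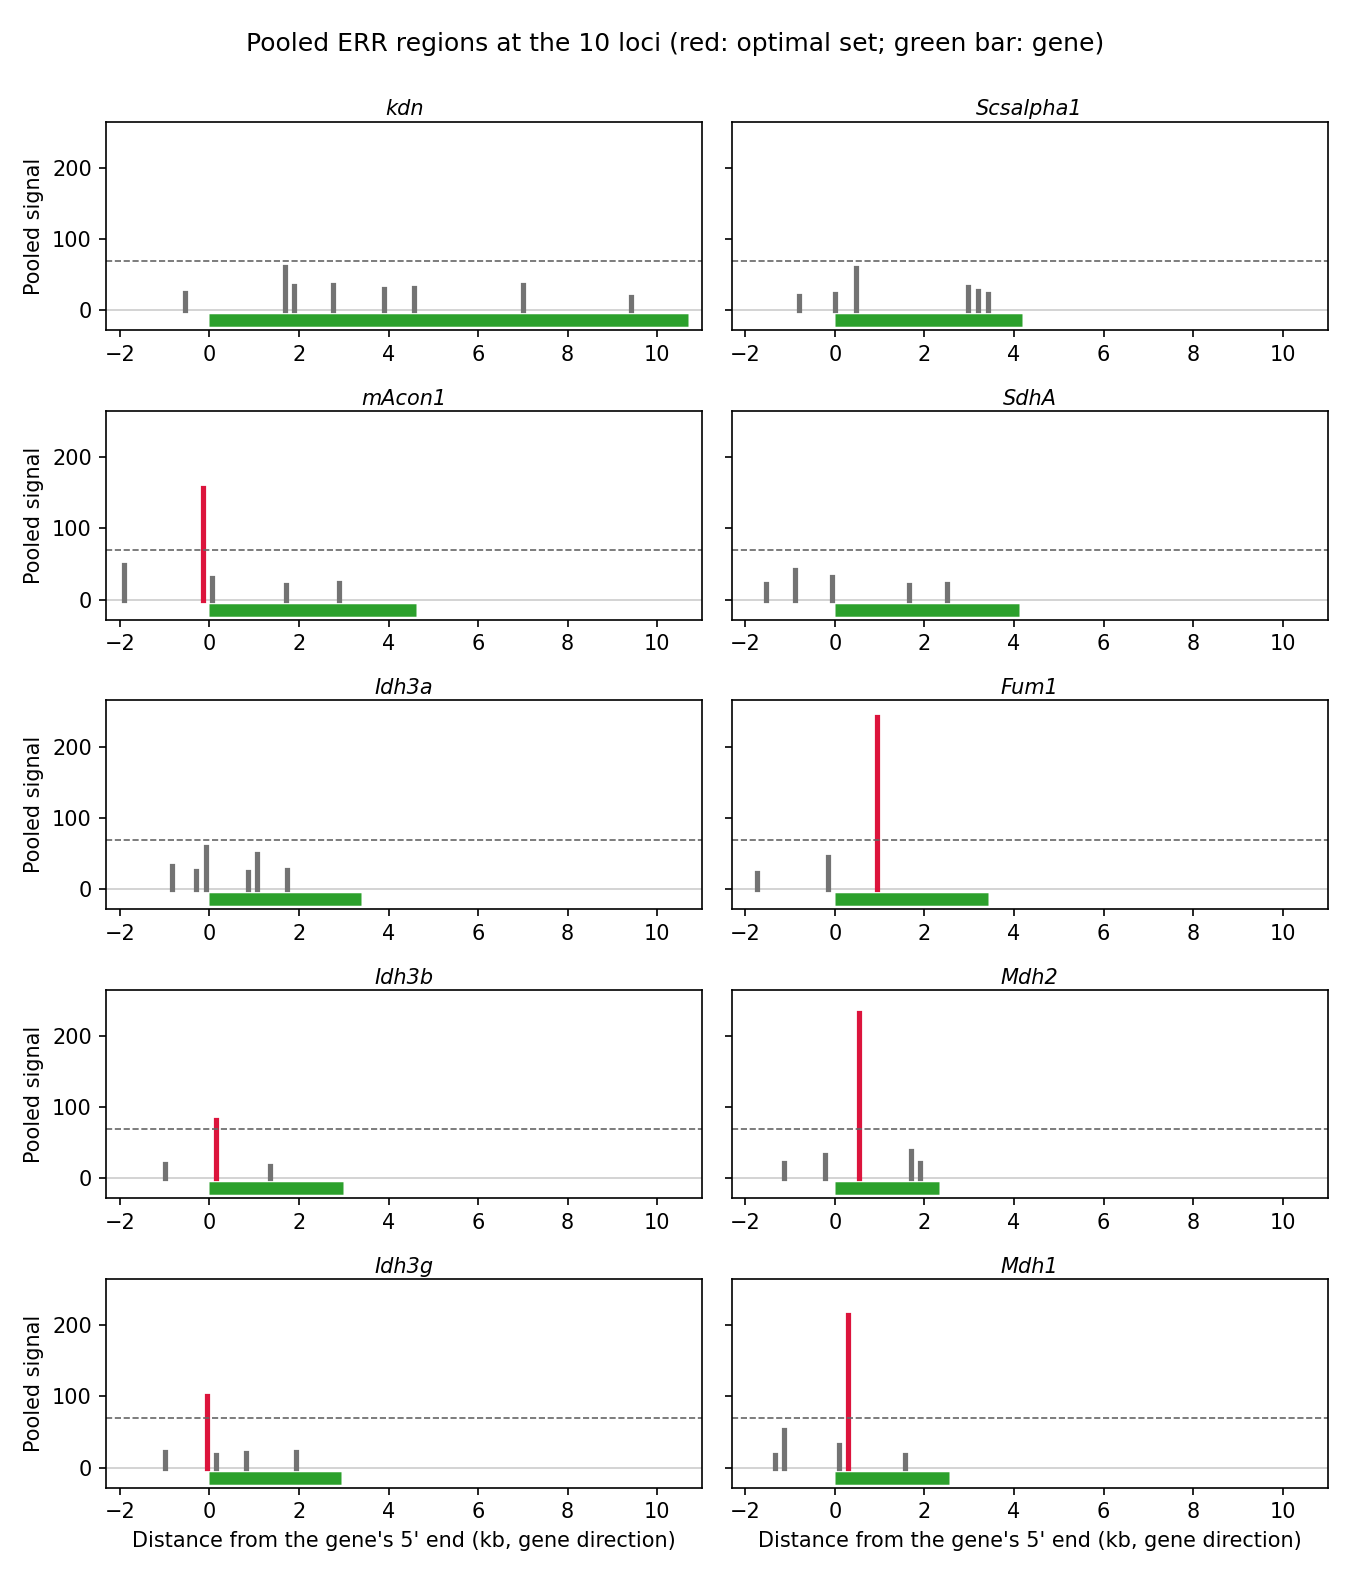
Pooled signal (vertical axis, caller's units) of every pooled region at the 10 genes, against the distance of its summit from the 5' end of the gene in kb in the direction of transcription. Bars in red are in the optimal set, the dashed line is its lowest signal (69.2), and the green bar is the gene. mAcon1 and Idh3g have their red bar just upstream of the gene, and Idh3b, Fum1, Mdh2 and Mdh1 have it inside.

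At each optimal member 1 region dominated. The ratio of the highest to the next highest pooled signal ran from 3.27 at mAcon1 to 6.07 at Mdh2 in these 6 genes. In the 4 genes without an optimal region it ran from 1.23 at Idh3a to 1.83 at Scsalpha1. Since a high first region raises this ratio by itself, it describes the loci and is no separate measure. Across the 10 genes the pooled list held 51 regions, from 3 at Idh3b and at Fum1 to 8 at kdn. In the pooled list the regions at Fum1, Mdh1 and Mdh2 were also narrow, with widths of 243, 113 and 244 bp. The other 7 highest regions had the usual 404 bp. Widths in replicates 2 and 3 were 222 and 164 bp at Fum1, 400 and 410 bp at Mdh1, and 203 and 410 bp at Mdh2. Only the Fum1 region was thus narrow in both replicates. Of all optimal regions 20.9% were narrower than 404 bp.

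All 6 optimal member regions had a summit within 100 bp in both replicate lists, as did 94.5% of all optimal regions. The optimal set was made up of the 2892 pooled regions of highest signal, and the pooled list came from these same replicates. A summit in both replicates is therefore no separate support. Of the 45 pooled member regions below the optimal set, 18 had a summit in both, or 40%, against 31.9% of all pooled regions below the set. Among the 2892 highest regions of each replicate, 6 members had one in replicate 2 and 6 in replicate 3, with backgrounds of 22.9% and 21.8% of protein-coding genes. They were not the same 6: Scsalpha1 was present in replicate 2 only and Idh3b in replicate 3 only. The remaining 5, mAcon1, Idh3g, Fum1, Mdh1 and Mdh2, had one in both, as did 17.5% of protein-coding genes. At Idh3a, Scsalpha1 and SdhA, below the optimal set, the highest pooled region ranked higher in replicate 2 than in replicate 3, and for kdn no close summit in replicate 3 allows the comparison. At mAcon1, Idh3b and Idh3g it ranked higher in replicate 3.

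**Figure D3:**
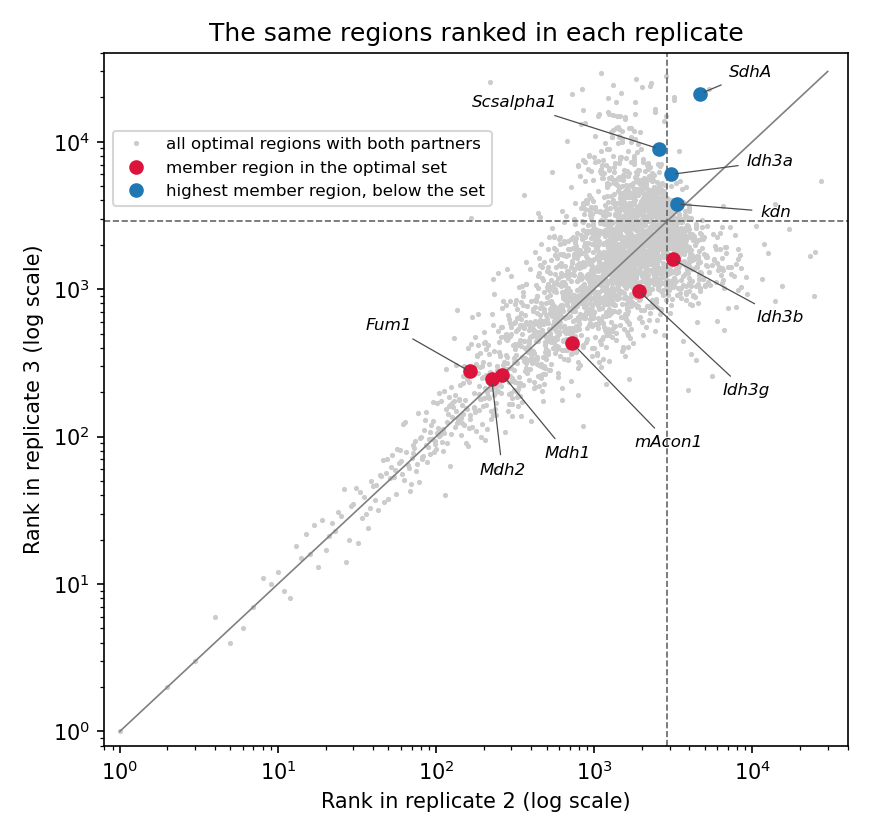
Rank of the highest pooled region of each gene in replicate 2 (horizontal) and replicate 3 (vertical), taken from the nearest summit within 200 bp (128 bp for kdn in replicate 3), on log scales. Grey points are the optimal regions with a summit within 100 bp in both replicates, dashed lines mark rank 2892, and the solid line marks equal ranks. Fum1, Mdh2 and Mdh1 lie near the line, while SdhA, at ranks 4672 and 21162, lies farthest from it among the members.

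Ordered by the highest pooled signal at any gene, Fum1, Mdh2 and Mdh1 ranked 292, 331 and 401 among the 13945 protein-coding genes, or within the first 2.88%. mAcon1 ranked 727, Idh3g 1696 and Idh3b 2396. The gene ranks of kdn, Scsalpha1 and Idh3a lay close together, at 3701, 3860 and 3873, and SdhA ranked 5771. Fum1 ranked 247 in replicate 2 and 392 in replicate 3, which takes it from the first to the last of these 3. Mdh2 ranked 343 and 356 and Mdh1 391 and 377, so Mdh2 was above Mdh1 in both, but the replicates do not fix the place of Fum1. Nor do they fix the place of kdn beside Scsalpha1 and Idh3a, although Scsalpha1 ranked above Idh3a in both. The gene ranks of kdn, Scsalpha1 and Idh3a were 3565, 2902 and 3368 in replicate 2 and 3742, 4222 and 5109 in replicate 3. The regions of these last 3 genes had a pooled −log10 q of 3.89, the value shared by the 3870 highest pooled regions and by every optimal region, so that column does not separate them from the optimal members.

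**Figure D4:**
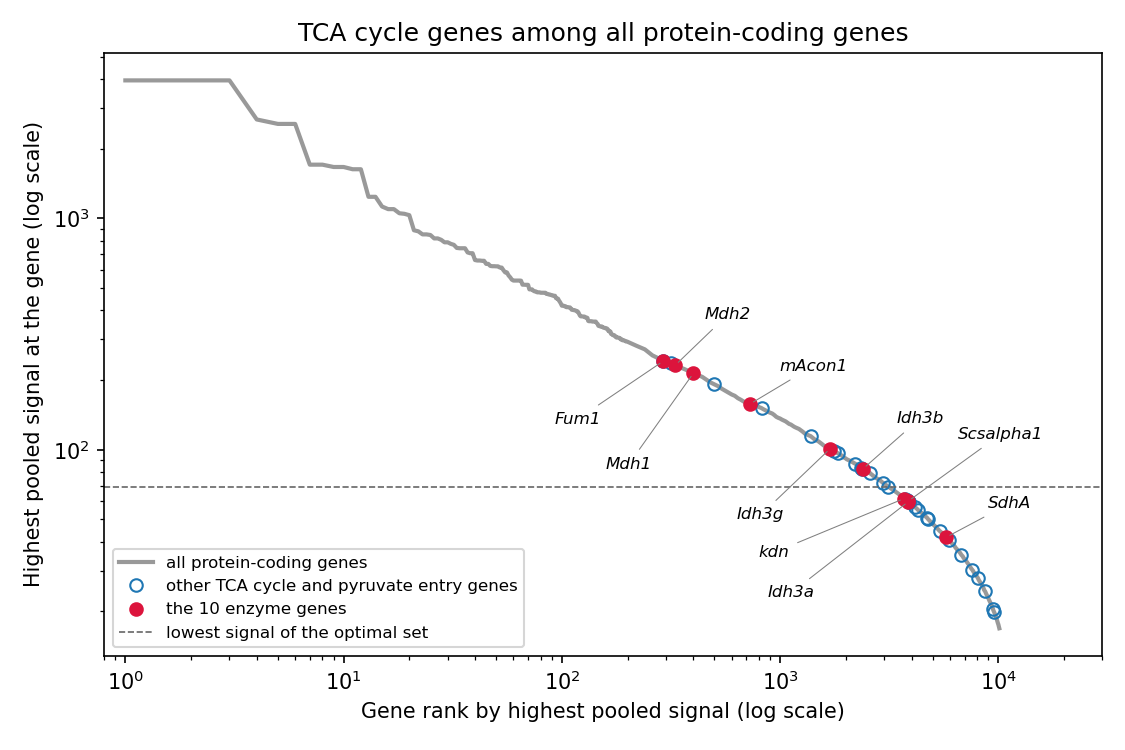
Highest pooled signal at each protein-coding gene (vertical axis, log scale) against the rank of the gene by that signal (horizontal axis, log scale), for all genes with a pooled region (grey line), the 10 enzyme genes (red) and other genes of the cycle and of pyruvate entry (blue rings). Fum1, Mdh2 and Mdh1 lie at gene ranks 292 to 401, and 4 red points lie below the dashed line at the lowest optimal signal.

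Promoter regions in the narrower sense were found at 5 of the 10 genes. Within 500 bp of a start, mAcon1, Idh3b, Idh3g, Fum1 and Mdh1 had an optimal summit, against 15.1% of protein-coding genes. Of these 5 regions, 3 also lay within 500 bp of a start of another protein-coding gene. These are the regions shared by mAcon1 with CG43345 and CG43346, by Idh3g with CG4743, and by Fum1 with ND-ASHI. Of the 1710 optimal regions that have a protein-coding start within 500 bp, 32.9% likewise had a start of another such gene within that distance. The regions at Idh3b, Mdh1 and Mdh2 had no such neighbour, and those at Mdh1 and Mdh2 lay 683 bp from a start of Cnot4 and 856 bp from that of CG7168. Which gene a shared region serves was not tested.

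None of the 6 optimal member windows, which reach 100 bp on either side of the summit and were read on both strands, held an exact match to the motif of oestrogen-related receptors, TNAAGGTCA, or to its core AAGGTCA. Over all optimal windows the shares were 1.63% and 3.80%, so at these rates few would be found among 6 windows. Allowing 1 mismatch in the longer motif gave no match either, against 15.1% of all optimal windows. The shorter GGTCA, a search added after the sequences had been seen and contained in both longer motifs, was present in 4 of the 6 windows and in 23.6% of all optimal windows. It lay 63 bp from the Fum1 summit, 37 bp from that of Mdh2, 16 bp from that of Mdh1 and 82 bp from that of Idh3g, as the capitals above show, and was not found at mAcon1 or Idh3b. At Mdh1 it was part of AGGTCA, which lay in 6.71% of all optimal windows and in no other optimal member window. The motifs of DREF (TATCGATA), M1BP (GGTCACACT, which contains the pentamer) and GAF (GAGAGAG), the E-box (CACGTG) and the hypoxia response element (NACGTG, which overlaps the E-box) were absent from the 6 windows. They lay in 5.53%, 2.84%, 7.30%, 3.35% and 17.5% of all optimal windows. GC content in the windows ran from 31.8% at Idh3g to 60.7% at Mdh2, whose window is partly coding, with a median of 40.3% over all optimal regions.

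The rest of the pathway was read from a list of 45 symbols, of which 37 matched a gene model. Of these 37 genes of the cycle, pyruvate entry and linked reactions, 13 had an optimal region by the same rule, against the 22.5% of all protein-coding genes given above. The highest pooled signals of these 13 ran from 69.4 to 242, beside 82.7 to 242 in the 6 enzyme genes with an optimal region, both bounded below by the lowest optimal signal. The highest was Men, which encodes the NADP-dependent malic enzyme that turns malate into pyruvate, with a signal of 242 and rank 197, in an intron 958 bp from a start. Next came sea, encoding the mitochondrial citrate carrier, with 236 and rank 211 at an intronic summit 342 bp from a start. Pdk, the kinase that switches off pyruvate dehydrogenase, had 192 and rank 337 at an intronic summit 4393 bp from a start. PCB, encoding pyruvate carboxylase, had 151 and rank 597, 1204 bp upstream of a start.

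Lower in this list were muc, the acetyltransferase subunit of pyruvate dehydrogenase (114), Mpc1 of the mitochondrial pyruvate carrier (98.9), Ogdh of the 2-oxoglutarate dehydrogenase complex (96.4) and the gluconeogenic gene Pepck1 (87.2), all pooled signals. Men ranked 209 in replicate 2 and 186 in replicate 3, and sea 396 and 127. Of the other subunits of succinate dehydrogenase, SdhC had an optimal region with a signal of 82.9, whose summit lay 1892 bp upstream of its start. SdhD, with 60.5 and rank 3702, and SdhB, with 20.5 and rank 22652, had none, like SdhA. The 2 remaining succinyl-CoA synthetase subunits, ScsbetaA (60.1) and ScsbetaG (30.2), were also below the optimal set, as was the related Scsalpha2 (59.3). SdhC, SdhB, SdhD, ScsbetaA, ScsbetaG and Scsalpha2 are named here because they complete the members' enzymes. No pooled region lay at 7 genes of the list, among them the fumarase relatives Fum2 and Fum4 and the aconitase relative mAcon2, chosen for mention after their values were seen.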

How the data were processed

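Region lists were used as the authors deposited them, in the narrowPeak layout on dm6. They comprise 1 relaxed list per replicate, 1 from both replicates' alignments together and the optimal set. Per the deposited notes, the relaxed lists were made from alignments with a control file as second input. The sources used here name neither the aligner nor the peak caller. The signal value and the −log10 q-value of each region are the caller's, as deposited, and are not scaled between lists. Depth is unknown, because the lists hold no read counts. The 2892 pooled regions of highest signal made up the optimal set, so pooled signal decides membership. The dm3 lists were not used here.

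Regions were ranked by signal and assigned by summit to Ensembl release 115 (BDGP6.54) gene models with Python 3.11.15; sequence came from the NCBI release 6 genome. All coordinates are 1-based. A gene's rank is its place by highest assigned pooled signal. Counts over the members were read beside the same count over all protein-coding genes on arms with regions. The members, gene list and motifs were chosen with earlier results of these data known. All 10 members are named. Other genes named are those with a start within 500 bp of an optimal member summit or nearer to it than the member, the 8 highest of the listed pathway genes, and those said to be chosen otherwise. Of the listed symbols 8 matched no single gene model and were left out. The assignment was tested on simulated summits. For the motif, planted copies were looked for with a simple pattern search, which was not the search behind the counts. Alternatives were other distances to a start, a stricter set, each replicate alone, other list lengths, windows and motif forms, with 95% Wilson intervals to judge shares of genes.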

Additional observations from a re-analysis of the deposited data

How the results depend on the processing

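Of 44 alternative values for the counts, shares and the median gene rank, 29 stayed within their spread or within 1.5 times the main count, and 15 moved. Taking the 2892 highest regions of each replicate alone in place of the optimal set also gave 6 members. In replicate 2 these included Scsalpha1 and not Idh3b. The count of 6 members with an optimal region was 6 with starts within 500 or 1000 bp and near starts only. It was 5 in the higher-signal 50% of the set and 8 with starts within 5000 bp. That last setting added regions near CG3847 and enc to kdn and Scsalpha1. The share of all protein-coding genes was 18.0%, 19.5% and 33.4% with starts within 500, 1000 and 5000 bp, 21.2% near starts only, 12.9% in the higher-signal 50%, and 21.8 to 22.9% without each replicate. Of the 37 other pathway genes, 6 were left in the higher-signal 50%. With promoters of 200 bp, 3 members had an optimal summit, against 11.4% of all protein-coding genes. Members with a top region in both replicates numbered 8 with 5000 and 9 with 10000 regions, where 26.2% and 41.6% of all protein-coding genes had one. Optimal member windows with a match numbered 1 for AGGTCA and 4 for GGTCA, both searches added after seeing the data. Optimal member regions near the start of another gene numbered 1 within 200 bp, and 5 within 1000 bp and within 2000 bp, where 21.6%, 39.7% and 51.2% of all optimal regions at a start lay near more than 1 gene. The median gene rank of 2046 was 2600 in replicate 2 alone and 1565 in replicate 3 alone. These settings changed the counts through what they admit, and other causes were not tested. Without read counts, no counting error can be set on a signal, and 2 replicates give only a coarse spread.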
